A study of Arabidopsis thaliana with 18 samples.

Results

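Polysomal RNA was compared with monosomal RNA in leaves of Arabidopsis thaliana plants of genotype pad4-1, using 3 polysomal and 3 monosomal libraries of the 18 libraries in the study. The members were taken by the labelled genotype and fraction, and the comparison ran over all 34212 loci of the deposited table, of which 20895 had enough counts to be tested. Both fractions came from 3-week-old plants in the Columbia-0 background that carried the pad4-1 allele and no labelled UPF1 mutation, so no library here is from a wild-type plant. PAD4 is a lipase-like regulator of salicylic acid defence, and pad4-1 served as the control of the study. The 6 matching libraries of the double mutant upf1-3 pad4-1, which also carries the upf1-3 allele of UPF1, an RNA helicase of nonsense-mediated mRNA decay, are used only where the genotypes are set side by side. The seedlings were started on agar medium with sucrose and moved to soil, under long days, and the labels call the replicates biological without saying whether 1 plant or a pool gave each, or whether a pair of fractions came from 1 extract.

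A monosome is an mRNA with a single ribosome on it, and a polysome is an mRNA with several. How many ribosomes an mRNA can hold depends on the length of its reading frame, on how often ribosomes start and on how fast they move, so long and well translated mRNAs are known to lie in polysomes and mRNAs with very short reading frames in monosomes. Chloroplasts and mitochondria have their own bacterial-type ribosomes, and how their mRNAs spread over ribosome fractions is set by a separate machinery. Counts were scaled to a common library size with TMM (trimmed mean of M values). The factors ran from 0.478 in polysomal replicate 1 to 1.053 in monosomal replicate 2 of pad4-1. A polysome-to-monosome ratio is therefore relative to the bulk of loci, and does not compare a locus's shares of all counts in the fractions. Only the fit without TMM scaling compares such shares. Neither ratio says anything of the number of molecules. Levels are given as CPM, the counts of a locus scaled to that common library size, and a fold change is the fitted ratio of polysomal to monosomal RNA on the log2 scale, with its standard error (SE).

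Many of the nuclear loci that differed between the fractions had very short reading frames. The coding sequences of 4 loci that were lower in polysomal RNA are shown so that the shortness of their frames can be seen whole. They were read from the TAIR10.1 genome and are written 5′ to 3′ with the introns removed and with the start and stop codons in capitals.
AT3G11120: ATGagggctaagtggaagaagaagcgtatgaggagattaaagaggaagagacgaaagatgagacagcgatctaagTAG
AT5G02502: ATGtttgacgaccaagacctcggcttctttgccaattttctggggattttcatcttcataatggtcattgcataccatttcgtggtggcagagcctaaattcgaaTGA
TOM6: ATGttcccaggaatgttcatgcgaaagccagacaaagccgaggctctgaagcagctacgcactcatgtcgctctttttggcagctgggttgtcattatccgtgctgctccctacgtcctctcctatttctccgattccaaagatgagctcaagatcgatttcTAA
MT3: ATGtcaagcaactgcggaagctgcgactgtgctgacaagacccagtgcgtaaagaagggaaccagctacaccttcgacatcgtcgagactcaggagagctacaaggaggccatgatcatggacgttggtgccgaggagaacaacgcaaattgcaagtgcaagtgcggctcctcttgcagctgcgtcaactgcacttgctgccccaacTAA
AT3G11120 encodes a protein of the L41 family of the large ribosomal subunit, with 25 codons before the stop codon, in 2 coding exons on the plus strand at chr3:3481128-3481304. AT5G02502, annotated as an oligosaccharyltransferase protein, has 35 codons in 1 coding exon on the minus strand at chr5:558604-558711. TOM6 (AT1G49410), a small subunit of the protein import pore of the outer mitochondrial membrane, has 54 codons in 1 coding exon on the minus strand at chr1:18286738-18286902. MT3 (AT3G15353), a metal-binding metallothionein, has 69 codons in 3 coding exons on the minus strand at chr3:5180825-5181325. At the other end stood AT1G67120, a midasin-like protein of ribosome assembly, whose annotated protein has 5400 amino acids.

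The libraries held 41932955, 29775965 and 23631313 estimated counts in polysomal replicates 1, 2 and 3, and 46774327, 31618627 and 16325537 in monosomal replicates 1, 2 and 3. Both libraries of replicate 1 stood apart by their chloroplast counts, which took 74.1% of the polysomal library and 59.9% of the monosomal one, against 45.5% and 39.2% in the other polysomal libraries and 33.4% and 31.7% in the other monosomal ones. The PAD4 transcript, which carries the same mutation in both fractions, lay between 0.0718 and 1.23 CPM in polysomal RNA and between no count and 1.77 CPM in monosomal RNA (a count of 0 allows up to 3 counts), and was not called (log2 fold change -0.61, SE 1.02, adjusted p = 0.875). These levels do not test the genotype, since the labels do not say what the mutation does to the transcript. UPF1, listed in the annotation as LBA1, had 49.7, 49.6 and 46.4 CPM in polysomal RNA and 48.1, 46.6 and 42.8 CPM in monosomal RNA (log2 fold change 0.08, SE 0.30, adjusted p = 0.955).

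By edgeR's quasi-likelihood test with Benjamini-Hochberg adjustment, 69 of the 20895 tested loci (0.33%) differed between polysomal and monosomal RNA. Of these, 32 (0.153%) were higher and 37 (0.177%) lower in polysomal RNA. The libraries of the fractions did not overlap at any of the 69 loci, whereas over all tested loci the polysomal libraries lay wholly above the monosomal ones at 10.6% and wholly below them at 10.3%. The smallest change that passed was 2.77-fold among the higher loci and 2.74-fold among the lower ones. An unadjusted p under 0.05 was reached by 2666 loci. The number of calls also depended on the fit: it was 577 with no filter on low counts, 593 by DESeq2, and 0 by edgeR without TMM scaling, where 1708 loci had an unadjusted p under 0.05. It rested on single libraries as well: it was 2, 3 and 4 without polysomal replicates 1, 2 and 3, and 123, 4 and 12 without monosomal replicates 1, 2 and 3. The 69 loci kept their direction in each of these fits.

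The 2 directions differed in kind. All 37 lower loci were nuclear and protein-coding, with a median protein length of 82 amino acids, and 23 of them encoded proteins of under 100 amino acids. The 32 higher loci held 13 mitochondrial and 5 chloroplast loci and 14 nuclear ones. Of those 14, 7 lay in a stretch of chromosome 2, from AT2G07660 to AT2G07835, that is a nuclear copy of mitochondrial DNA, and reads of the copy and of the mitochondrial genome may have been split between them, which makes these values uncertain. Outside that stretch, AT2G07080 is a pseudogene, and the 6 others encoded proteins of 600 or more amino acids.

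Protein length ordered the ratio over the whole set of 19714 tested nuclear protein-coding loci. Among the 722 loci with proteins of under 100 amino acids, the median log2 fold change was -1.11, and 15.8% of the values were positive, beside 49.6% over all tested loci. It was -0.53 for 2666 loci of 100 to under 200 amino acids, -0.14 for 6798 of 200 to under 400, 0.07 for 5047 of 400 to under 600 and 0.28 for 3378 of 600 to under 1000. Among the 1103 loci with proteins of 1000 amino acids and more, the median was 0.49, and 87.6% of the values were positive. Without TMM scaling the class of 400 to under 600 amino acids turned to -0.08, and the others kept their sign. The median over all tested loci was -0.00068. From the shortest class to the longest, 23, 8, 3, 3, 0 and 0 loci were called lower and 0, 2, 2, 0, 4 and 2 higher.

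**Figure D1:**
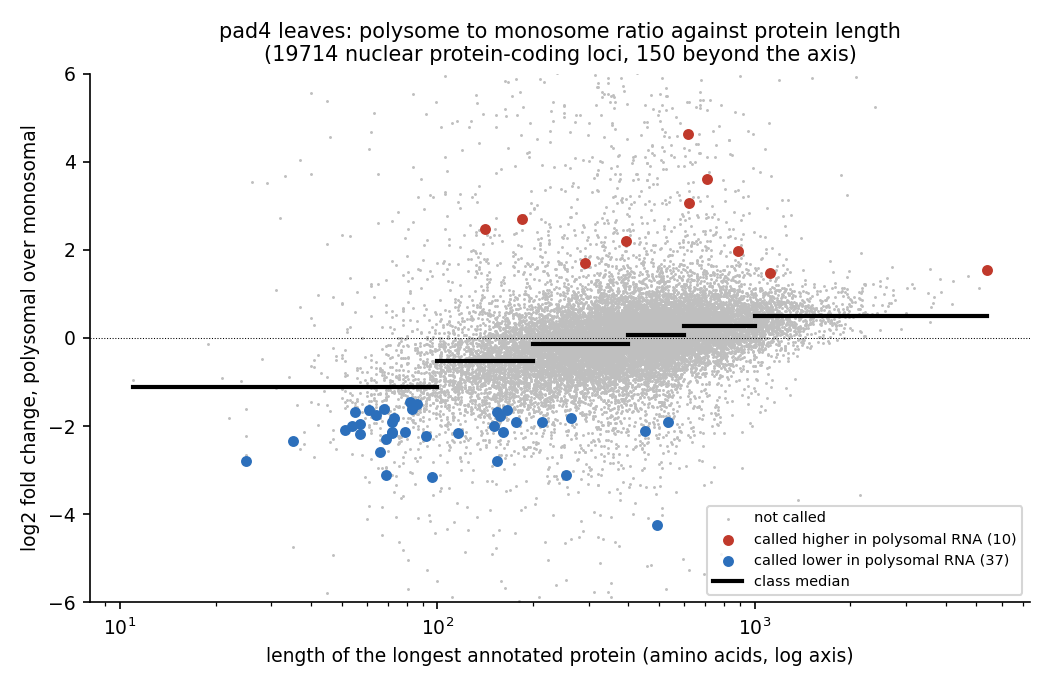
Fitted log2 fold change of polysomal over monosomal RNA in pad4-1 leaves (vertical axis) against the length of the longest annotated protein in amino acids (log axis), 1 point for each of 19714 nuclear protein-coding loci, with loci called higher in red, loci called lower in blue and the median of each length class as a black line. The class medians climb from -1.11 below 100 amino acids to 0.49 at 1000 amino acids and above, and 150 loci lie beyond the axis.

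Single loci at both ends show the size of the contrast. AT3G11120, of the L41 family, had 27.9, 78.4 and 86.4 CPM in polysomal RNA against 199.8, 532 and 599 CPM in monosomal RNA. Each polysomal library lay below each monosomal one, and replicate 1 was the lowest of either fraction (log2 fold change -2.79, SE 0.48, adjusted p = 0.0241). AT5G02502, a locus of few counts that was chosen after its values were seen, had 2.40, 3.19 and 3.36 CPM in polysomal RNA. It had 12, 16.6 and 16.9 CPM in monosomal RNA, and the 2 groups did not overlap (-2.34, SE 0.39, adjusted p = 0.0211). AT1G67120, the midasin-like gene of the longest protein, had 206, 131 and 99.4 CPM in polysomal RNA and 58.8, 46.3 and 45.4 CPM in monosomal RNA. Its lowest polysomal library stood well above its highest monosomal one (log2 fold change 1.53, SE 0.31, adjusted p = 0.0468).

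The contrast was present in each same-numbered pair of libraries. The median log2 CPM of loci with 1000 or more amino acids exceeded that of loci under 100 amino acids by 4.52, 3.84 and 3.76 in polysomal replicates 1, 2 and 3, and by 3.19, 1.98 and 2.24 in monosomal replicates 1, 2 and 3. Long transcripts yield more fragments in any library, so only the difference between the fractions is read here. It averaged 4.04 ± 0.42 in polysomal and 2.47 ± 0.63 in monosomal libraries (SD, n = 3 each; two-sided exact permutation test p = 0.1, the smallest that 3 against 3 libraries allow). The gap between the class medians of the log2 fold change, 1.60, stayed between 1.34 and 1.81 under every alternative tried, including each fit without 1 library.

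**Figure D2:**
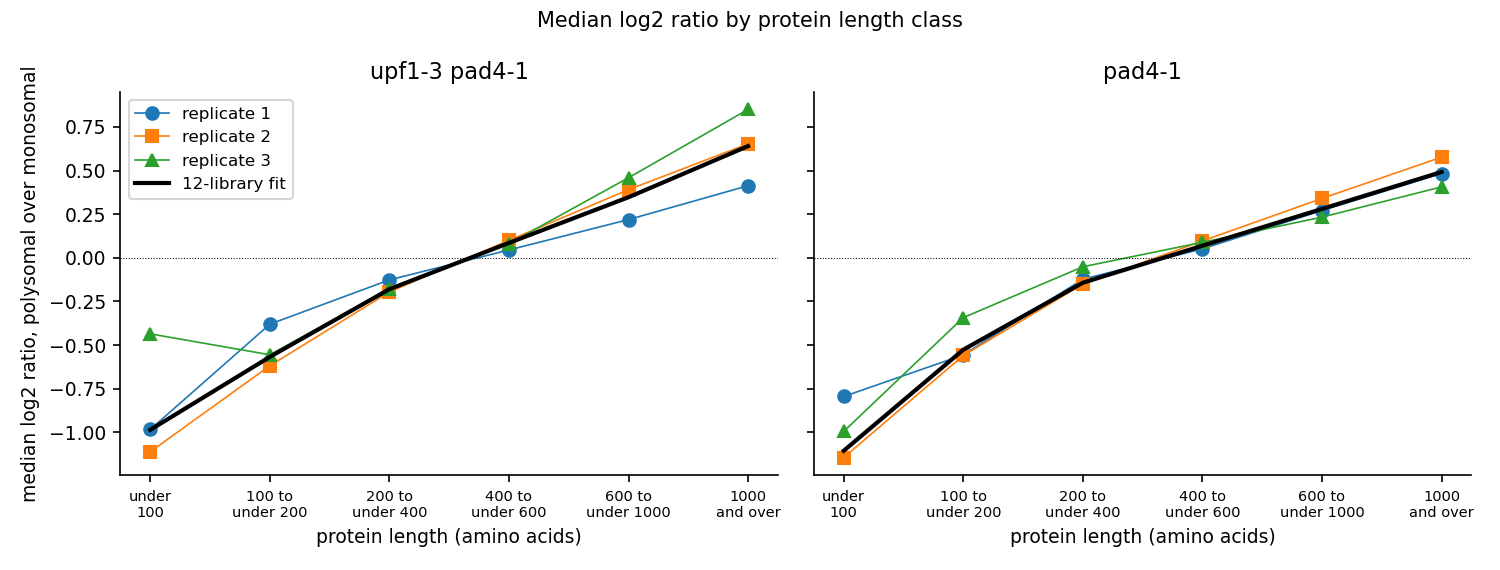
Median log2 ratio of polysomal to monosomal RNA within same-numbered library pairs (vertical axis) for 6 classes of protein length in amino acids (horizontal axis), 1 point per pair, for upf1-3 pad4-1 leaves on the left and pad4-1 leaves on the right. In pad4-1 the pairs lie at -0.79, -1.14 and -0.99 below 100 amino acids and at 0.48, 0.58 and 0.41 at 1000 amino acids and above.

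Other features of the loci also varied with the ratio. Across the 19714 nuclear protein-coding loci, Spearman's rho with the log2 fold change was 0.42 for protein length, 0.39 for transcript length, -0.21 for the GC content of the coding sequence and 0.06 for the mean level. These are descriptions across genes, which share the libraries and are not independent replicates. The 2563 loci with a coding GC content of 48% and more had a median log2 fold change of -0.36 and held 20 of the 37 lower loci. That is 0.78% of them, beside 0.177% over all tested loci. Within the class of 200 to under 400 amino acids, rho was -0.11 for coding GC and 0.15 for protein length, so GC content was not separated from length. Transcripts whose leader holds an upstream reading frame of at least 16 codons, a feature that can hold back translation of the main frame, had a median of -0.01 over 5624 loci, beside -0.02 over 13329 loci without one. Loci with 9 or more introns had a median of 0.16, and those with 1 to 3 introns one of -0.15.

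Cytosolic ribosomal proteins, many of them short, leaned to the monosomal side. Of 77 tested proteins of the small subunit, 2 were lower and none higher in polysomal RNA, with a median log2 fold change of -0.38. Of 113 tested proteins of the large subunit, 2 were lower and none higher, with a median of -0.39. AT3G60245, a zinc-binding ribosomal protein of 92 amino acids, had 84.8, 214 and 204 CPM in polysomal RNA and 705, 649 and 1012 CPM in monosomal RNA, with no overlap (-2.23, SE 0.40, adjusted p = 0.0293). RS27A (AT3G61110), protein S27 of the small subunit, had 35.7, 27.4 and 29.7 CPM in polysomal RNA against 56.2, 97.4 and 110.4 CPM in monosomal RNA (-1.51, SE 0.30, adjusted p = 0.0437). The other 2 members of the lists that passed were AT3G53890, protein S21e (-1.45, SE 0.29, adjusted p = 0.0472), and AT3G06680, of the L29e family (-1.60, SE 0.28, adjusted p = 0.0241). Near copies of such proteins share sequence, so the values of single copies are uncertain.

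Within the ribosomal proteins the ratio again went by length. The 20 tested members of under 100 amino acids had a median log2 fold change of -1.25, and at 16 of them the polysomal libraries lay wholly below the monosomal ones. Of other nuclear protein-coding loci under 100 amino acids, 32.6% lay wholly below. All 4 calls were among these 20. The 113 members of 100 to under 200 amino acids had a median of -0.49, and the 57 of 200 and more one of 0.14. Other nuclear protein-coding loci of the same length classes had medians of -1.10, -0.53 and 0.06. AT3G11120 of the L41 family was not on the list of ribosomal proteins. Nor was AT3G02190, of the L39 family, with 51 amino acids, which was also called lower (-2.09, SE 0.42, adjusted p = 0.0462). It was named after its values were seen.

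Translation factors, the proteins that load ribosomes and drive elongation, had no called member among 33, with a median of 0.20. The member with the smallest p was EIF3A (AT4G11420), the largest subunit of initiation factor 3, which had 203, 291 and 204 CPM in polysomal RNA and 100.3, 134 and 163 CPM in monosomal RNA, without overlap (0.81, SE 0.28, adjusted p = 0.247). PAB4, a poly(A)-binding protein, stood at 0.58 (SE 0.28, adjusted p = 0.401) and ELF5A-3, a short factor that helps ribosomes through difficult peptides, at -0.88 (SE 0.38, adjusted p = 0.342).

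Small metal-binding proteins and small protein modifiers had a median of -1.68 over 8 metallothionein and ubiquitin-like genes, the lowest of the lists apart from the tapetum and pollen coat markers. All 8 had every polysomal library below every monosomal one, and 3 passed the test. Of loci under 100 amino acids, 33.9% had their polysomal libraries wholly below, and of all tested loci 10.3%. MT3 had 13, 20.5 and 19.2 CPM in polysomal RNA and 125, 50.4 and 85.2 CPM in monosomal RNA (-2.30, SE 0.38, adjusted p = 0.0211). SUMO2 (AT5G55160), a modifier that is joined to other proteins, had 6.59, 15.7 and 14.4 CPM in polysomal RNA and 36.4, 54.9 and 72 CPM in monosomal RNA (-2.15, SE 0.40, adjusted p = 0.0331). UBL5 (AT5G42300), a ubiquitin-like protein of pre-mRNA splicing, had 20.8, 24.3 and 25.6 CPM in polysomal RNA and 69, 104 and 76.2 CPM in monosomal RNA (-1.82, SE 0.28, adjusted p = 0.017). At each of the 3 genes the monosomal libraries spread over a wider range of CPM than the polysomal ones. They also stood at a higher level, so these ranges do not compare the spread relative to the level. The fractions did not overlap at these 3 genes, a condition of their choice. MT2A, the abundant leaf metallothionein, missed the threshold at -1.54 (SE 0.36, adjusted p = 0.0775).

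Short secreted and stress peptides stood at a median of -1.17 over 26 tested members, with 1 lower and none higher. The one that passed was AGP15 (AT5G11740), an arabinogalactan peptide of the cell surface, with 55, 78.2 and 67.6 CPM in polysomal RNA and 210.1, 234 and 175 CPM in monosomal RNA (-1.62, SE 0.30, adjusted p = 0.0331). Its relatives AGP21 and AGP12 had log2 fold changes of -2.65 (SE 0.60, adjusted p = 0.0704) and -1.73 (SE 0.42, adjusted p = 0.0899), and LTP5, a secreted lipid transfer protein, one of -1.46 (SE 0.35, adjusted p = 0.0799). The polysomal libraries lay below the monosomal ones at all 3. Arabinogalactan proteins grouped by their annotated product, a class chosen after the values were seen, had a median of -1.12 over 38 loci.

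Other genes were lower in polysomal RNA by the same test. DOT1 (AT2G36120), a glycine-rich protein, had 2.25, 10.3 and 3.36 CPM in polysomal RNA and 31.4, 70.2 and 36.5 CPM in monosomal RNA (-3.11, SE 0.53, adjusted p = 0.0215). Replicate 2 was the highest in either fraction. LEA14 (AT1G01470), a late embryogenesis abundant protein, had 5.24, 8.72 and 6.73 CPM in polysomal RNA and 23.3, 25.6 and 33.8 CPM in monosomal RNA (-2.0, SE 0.39, adjusted p = 0.0394). TOM6, the import subunit whose 54 codons are printed above, had 9.48, 19.1 and 14.6 CPM in polysomal RNA and 44.3, 77 and 51.9 CPM in monosomal RNA (-2.0, SE 0.31, adjusted p = 0.017). AT3G16670, of the pollen allergen and extensin family, had 2.75, 7.25 and 7.30 CPM in polysomal RNA and 30.9, 54.7 and 34.9 CPM in monosomal RNA (-2.80, SE 0.56, adjusted p = 0.0437).

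**Figure D3:**
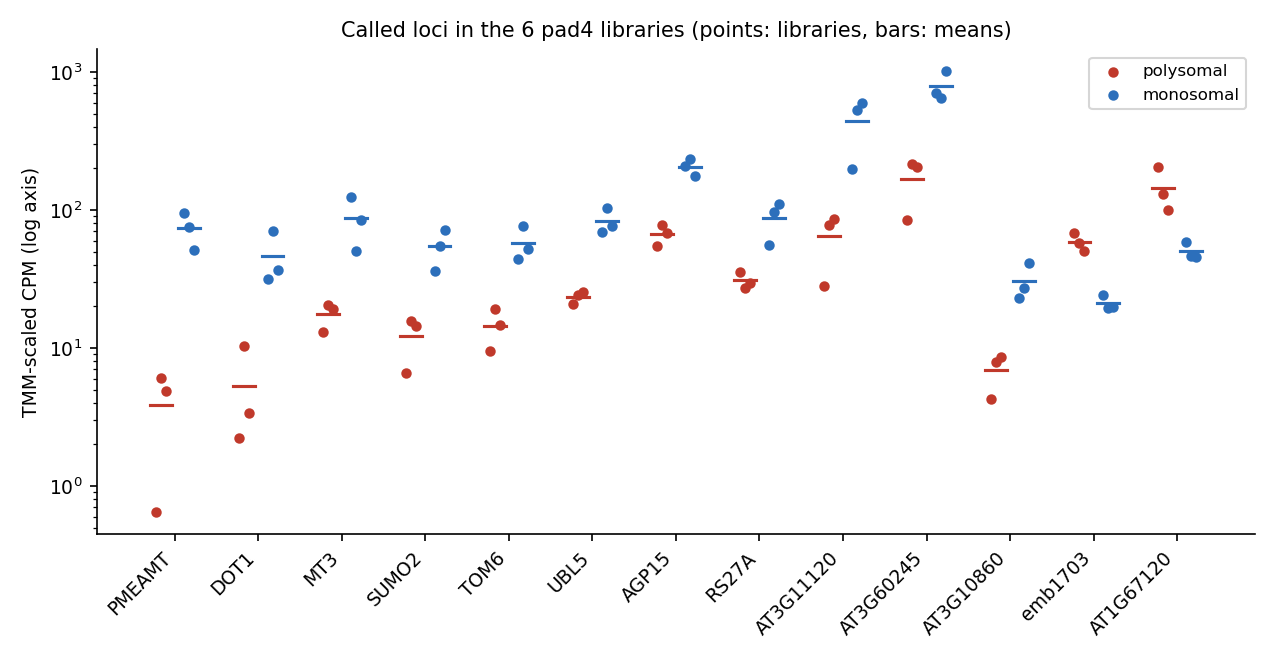
CPM on a log axis (vertical) of loci named in the text, each with its 3 polysomal libraries on the left in red and its 3 monosomal libraries on the right in blue, and a bar at the mean of each group. For these called loci the 2 sets of points do not overlap, a condition of the rule that chose most of them.

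Nuclear genes whose annotated product names a respiratory chain complex or an ATP synthase, a class chosen after the values were seen, held 7 of the 37 lower loci. The class goes by product name, so it is not limited to mitochondrial ATP synthase or to subunits of the complexes. The 28 tested members of under 100 amino acids had a median log2 fold change of -1.28, no positive value and all 7 calls. The 26 members of 200 and more amino acids had a median of 0.04 and no call. AT3G10860, subunit 8 of the cytochrome b-c1 complex, had 4.29, 7.90 and 8.61 CPM in polysomal RNA and 23.2, 27.3 and 41.6 CPM in monosomal RNA, without overlap (-2.14, SE 0.36, adjusted p = 0.0215). The other called members, named after their values were seen, were AT3G52730, a subunit of the same complex (-2.13), AT1G53030, a copper chaperone of cytochrome c oxidase (-2.16), AT4G21105 and AT2G47380, of that oxidase (-1.62 and -1.74), AT2G02510, of the NADH dehydrogenase (-1.92), and AT3G46430, of the ATP synthase (-1.68).

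Genes for the photosystems, whose nuclear-encoded subunits are made in the cytosol and imported, had no call among 46, with a median of -0.27. The 17 light-harvesting antenna proteins had a median of 0.08, the 12 photosystem I subunits one of -0.69 and the 9 photosystem II subunits one of -0.50, and this division was made after the values were seen. PSBX, a small photosystem II subunit, had 83.4, 114 and 123 CPM in polysomal RNA and 229, 281 and 231 CPM in monosomal RNA (-1.21, SE 0.33, adjusted p = 0.129). PSAG of photosystem I stood at -1.04 (SE 0.40, adjusted p = 0.287). For both genes the polysomal libraries all lay below the monosomal ones.

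Genes of the Calvin cycle and photorespiration had no call among 25 and a median of -0.06, which was 0.15 without monosomal replicate 1. The short Rubisco small subunit genes RBCS1B and RBCS2B stood at -1.0 (SE 0.33, adjusted p = 0.218) and -0.78 (SE 0.37, adjusted p = 0.386). The longer enzymes SBPASE and GAPA stood at 0.63 (SE 0.34, adjusted p = 0.471) and 0.62 (SE 0.37, adjusted p = 0.52). These 4 had the smallest p on the list, and the libraries of the fractions did not overlap at any of them. Of the 25 genes, 5 had the polysomal libraries wholly above the monosomal ones and 6 wholly below. Over all tested loci these shares were 10.6% and 10.3%.

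At the long end, all 22 genes on the list of very long proteins had positive log2 fold changes (20 of the 22 without TMM scaling, and 21 without monosomal replicate 3), with a median of 0.55, and at 16 of them the polysomal libraries lay wholly above the monosomal ones. Of all loci with 1000 or more amino acids, 31.9% lay wholly above, 87.6% were positive and the median was 0.49. Over all tested loci 10.6% lay wholly above. One of the 22, AT1G67120, passed the test. BIG (AT3G02260), a scaffold needed for auxin transport, had 533, 361 and 318 CPM in polysomal RNA and 208, 165 and 175 CPM in monosomal RNA (1.15, SE 0.30, adjusted p = 0.119). UPL1, a ubiquitin ligase of 3681 amino acids, stood at 0.93 (SE 0.31, adjusted p = 0.225), and GSL12, a callose synthase, at 0.99 (SE 0.31, adjusted p = 0.189). Outside the list, emb1703 (AT3G61780), an embryo-essential protein of 1121 amino acids, had 67.7, 57.5 and 50.4 CPM in polysomal RNA and 24.2, 19.4 and 19.7 CPM in monosomal RNA (1.47, SE 0.26, adjusted p = 0.0242). Its groups were separated by more than the spread within either.

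The cellulose synthases of the primary wall, 4 genes of similar length, had a median of 0.23 and no call. Pentatricopeptide repeat proteins, which bind organelle transcripts, and the NLR immune receptors were long-protein classes picked from annotated products after the values were seen. The 245 pentatricopeptide repeat loci had a median of 0.57, where loci of their length class had one of 0.28, and 205 were positive. The 120 NLR receptor loci had a median of 0.51, beside 0.49 for their length class. Of the repeat proteins, 1 was called higher, AT1G12620, with 4.09, 4.20 and 3.36 CPM in polysomal RNA and 0.584, 0.24 and 0.582 CPM in monosomal RNA (3.06, SE 0.59, adjusted p = 0.0387). It had few counts and was named after its values were seen.

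**Figure D4:**
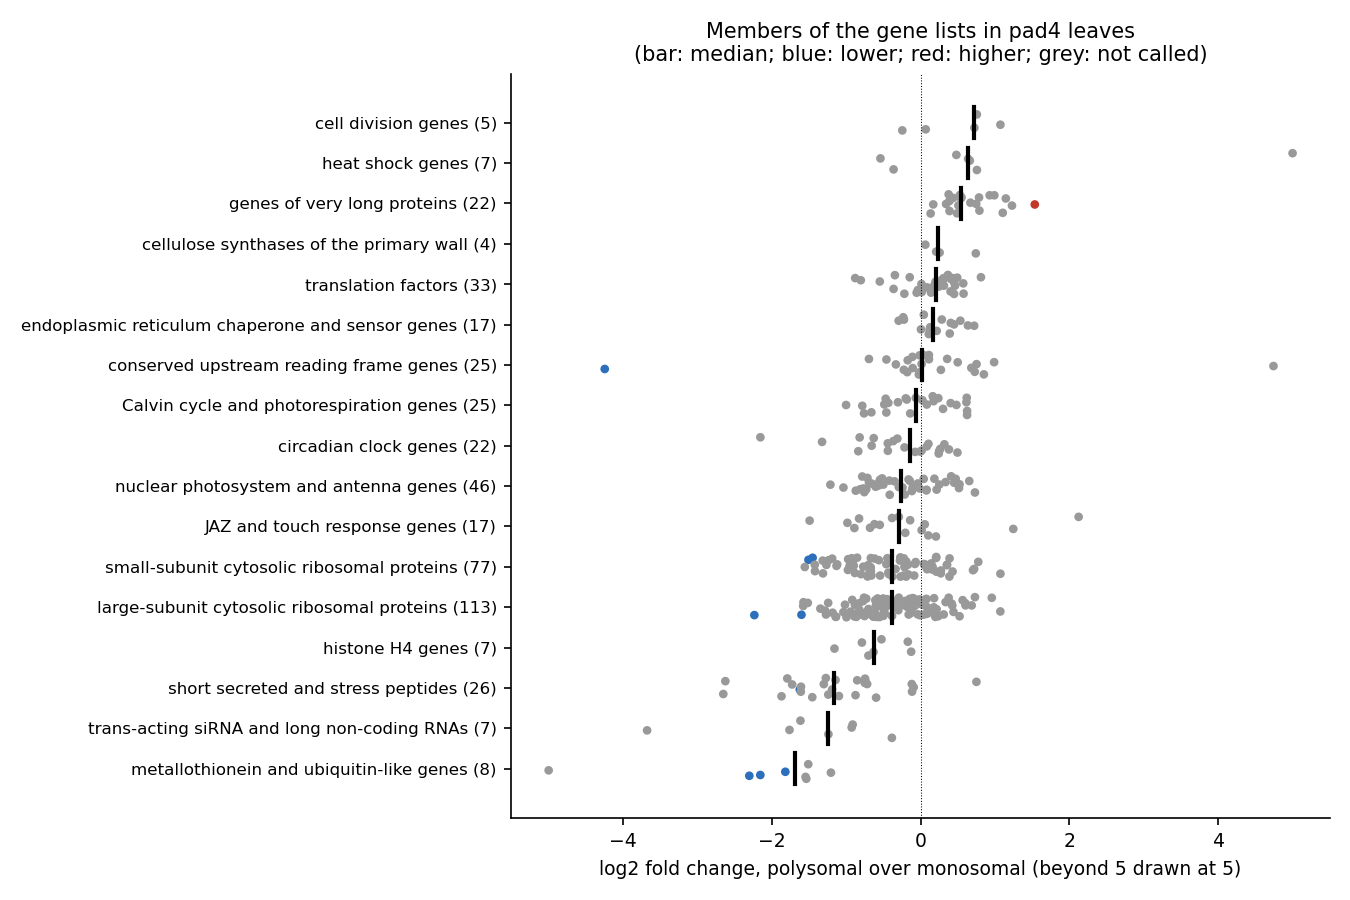
Fitted log2 fold change of polysomal over monosomal RNA (horizontal axis) for each tested member of 17 gene lists, with the number tested in brackets, the list median as a black bar, members called lower in blue, called higher in red and others in grey. Medians run from -1.68 for the metallothionein and ubiquitin-like genes to 0.72 for the cell division genes, and values beyond 5 are drawn at 5.

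The lowest ratio among called nuclear loci was that of PMEAMT (AT1G48600), a phosphoethanolamine methyltransferase of phosphatidylcholine synthesis, whose mRNA carries a conserved upstream reading frame. It had 0.649, 6.07 and 4.88 CPM in polysomal RNA against 95, 75.6 and 51.2 CPM in monosomal RNA (-4.25, SE 0.60, adjusted p = 0.0121). Unlike most lower loci it encodes a protein of ordinary length, 491 amino acids. Its call held under 14 of 18 alternatives, and its adjusted p was 0.07745 without TMM scaling, 0.0524 without polysomal replicate 3, 0.187 without both libraries of replicate 2 and 0.121 without both of replicate 3. The 25 tested genes with conserved upstream reading frames had a median of 0.01 (-0.08 without TMM scaling), and no other member passed. The paralogs of PMEAMT with the same kind of leader were not called: XPL1 had 101, 122 and 123 CPM in polysomal RNA and 118, 107 and 94.6 CPM in monosomal RNA (0.11, SE 0.29, adjusted p = 0.931), and AT1G73600 stood at -0.18 (SE 0.59, adjusted p = 0.95). Reads shared among the 3 paralogs make the values of each uncertain.

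Chloroplast loci leaned to the polysomal side as a group. The 79 tested loci had a median log2 fold change of 1.25, with 88.6% positive, and 5 were called higher and none lower. In fits without 1 library the median ran from 0.62, without polysomal replicate 1, to 1.87, without monosomal replicate 1. Of those fits, only that without monosomal replicate 1 called chloroplast loci, again 5. ATCG00170 had 1389, 865 and 698 CPM in polysomal RNA and 202, 94.3 and 138 CPM in monosomal RNA (2.76, SE 0.51, adjusted p = 0.0331). ATCG00190 had 666, 462 and 339 CPM in polysomal RNA and 111, 44.6 and 91.9 CPM in monosomal RNA (2.57, SE 0.49, adjusted p = 0.0341). The remaining 3 calls, named after their values were seen, were ATCG01130 (2.65) and the identical pair ATCG00860 and ATCG01280 (2.53), which are copies of 1 sequence. The annotation used gives no names for these loci.

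A single locus held a large part of the chloroplast counts. ATCG00020 took 45.5, 20.8 and 16.3% of all counts in polysomal replicates 1, 2 and 3, and 41.0, 26.7 and 19.3% in monosomal replicates 1, 2 and 3, so that the fractions overlapped (log2 fold change 0.35, SE 1.03, adjusted p = 0.943). Its mean share was 27.5% in polysomal and 29.0% in monosomal libraries, while the TMM-scaled fold change was positive. All other chloroplast loci together took 28.6, 24.7 and 22.9% of polysomal libraries and 18.9, 6.70 and 12.3% of monosomal ones. Those shares averaged 25.4% ± 2.93 in polysomal and 12.6% ± 6.08 in monosomal libraries (SD, n = 3 each; two-sided exact permutation test p = 0.1, the smallest possible). The whole chloroplast share averaged 53.0% ± 18.6 in polysomal and 41.6% ± 15.8 in monosomal libraries, which overlapped (exact permutation test p = 0.5). That test takes no account of replicate number. In same-numbered pairs 1, 2 and 3 the polysomal share was the higher by 14.3, 12.1 and 7.53 percentage points. ATCG00340, with 3.02, 2.09 and 1.86% of polysomal and 0.776, 0.267 and 0.341% of monosomal counts, showed the same separation without passing the test (2.58, SE 0.80, adjusted p = 0.187).

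**Figure D5:**
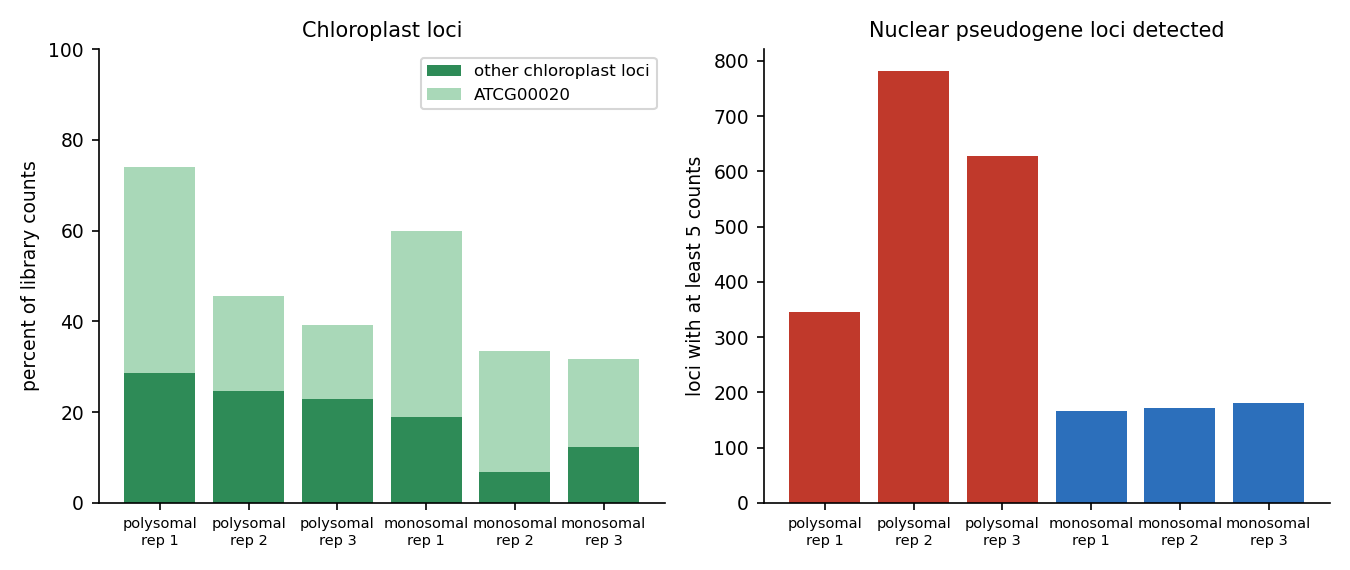
Left, share of all counts (percent) taken by chloroplast loci in each of the 6 libraries, polysomal left of monosomal, stacked into ATCG00020 and all other chloroplast loci. Right, number of nuclear pseudogene loci with at least 5 counts per library, which lies between 345 and 782 in polysomal and between 167 and 180 in monosomal libraries.

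Mitochondrial loci gave 13 calls among 89 tested, all higher in polysomal RNA, with a median of 1.74 and 94.4% positive values. ATMG01190 had 294, 744 and 573 CPM in polysomal RNA and 38.3, 33.3 and 127 CPM in monosomal RNA (3.03, SE 0.60, adjusted p = 0.0434). ATMG00516 had 65.1, 138 and 94 CPM in polysomal RNA and 13.3, 12.2 and 15.8 CPM in monosomal RNA (2.85, SE 0.37, adjusted p = 0.0103), and ATMG01200 stood at 3.04 (SE 0.51, adjusted p = 0.0211). None of the 3 overlapped between fractions, as the rule that chose them required. The share of all counts at mitochondrial loci overlapped between the fractions, at 0.561, 1.72 and 1.62% in polysomal and 0.414, 0.617 and 2.67% in monosomal libraries (exact permutation test p = 0.9). Here too 1 locus weighed on the sum: ATMG00020 held 33.3, 43.5 and 44% of mitochondrial counts in polysomal libraries and 51.2, 55.5 and 78.1% in monosomal ones, with a log2 fold change of -0.59. All other mitochondrial loci together took 0.374, 0.972 and 0.907% of polysomal and 0.202, 0.275 and 0.587% of monosomal libraries. Unlike the other chloroplast loci, these shares still overlapped between the fractions (exact permutation test p = 0.2). Within them 1 locus again weighed on the sum. ATMG01390 took 0.0457, 0.305 and 0.330% of polysomal and 0.0180, 0.0580 and 0.314% of monosomal libraries. The overlap is therefore not read as a trait of mitochondrial loci at large.

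The nuclear copy of mitochondrial DNA on chromosome 2 moved with the mitochondrial loci. Its 99 tested loci had a median of 1.77, and 61 of them had every polysomal library above every monosomal one. This held at 48.3% of mitochondrial loci and 10.6% of all tested loci. Among the 7 that passed, named after their values were seen, AT2G07727, annotated as cytochrome b, stood at 2.20 (SE 0.41, adjusted p = 0.0331) and AT2G07695, annotated as a cytochrome c oxidase subunit, at 1.71 (SE 0.30, adjusted p = 0.0293). Whether these reads came from the nucleus or the mitochondrion cannot be told apart here.

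The fitted medians of non-coding loci lay on the monosomal side, without a locus that passed the test. The trans-acting siRNA precursors and long non-coding RNAs on the list had a median of -1.24 over 7 tested members, with no positive value and no call. TAS1C, whose transcript is cut by a microRNA to make small RNAs, had 3.39, 4.20 and 2.87 CPM in polysomal RNA and 3.66, 19.7 and 12.2 CPM in monosomal RNA, with an overlap (-1.76, SE 0.57, adjusted p = 0.209). Loci annotated as lncRNA had a median of -0.21 over 161, with 42.9% positive, and those annotated as microRNA genes one of -0.37 over 37. The same-numbered pairs 1, 2 and 3 differed in sign for both. Their medians were 0.15, -0.23 and -0.06 for lncRNA and 0.52, -0.52 and -0.11 for microRNA genes. The 10 small nuclear and 10 small nucleolar RNA loci had medians of -1.28 and -1.45, and their share of the counts outside the chloroplast varied within a fraction, at 0.220, 2.05 and 1.55% in polysomal and 0.294, 4.28 and 4.96% in monosomal libraries (exact permutation test p = 0.3).

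Among nuclear pseudogene loci, 345, 782 and 628 had at least 5 counts in polysomal libraries, against 167, 172 and 180 in monosomal libraries (exact permutation test p = 0.1, the smallest possible). Over loci of every kind, 19398, 20452 and 20438 had at least 5 counts in polysomal libraries, against 19176, 19133 and 18607 in monosomal ones, so detection was wholly higher in polysomal libraries there too. Total counts at nuclear loci did not order the libraries that way, at 10611531, 15710474 and 13981911 in polysomal and 18579836, 20866931 and 10716666 in monosomal libraries. The share of nuclear counts at pseudogenes was 0.301, 0.426 and 0.305% in polysomal and 0.173, 0.760 and 0.764% in monosomal libraries, so a larger number of loci did not go with a larger sum. The 449 tested pseudogene loci had a median log2 fold change of 2.89, and 2 were called higher. Fitted ratios of loci close to 0 counts depend on the prior count of the fit, so this median is not read as a size. The 162 tested loci annotated as transcribed pseudogenes had a median of 0.04, with 51.9% positive values, and 1 was called higher.

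Marker lists of cell types gave no call. Mesophyll, vascular, epidermal and guard or myrosin cell markers had medians of -0.43 (3 tested), -0.28 (6), -0.32 (7) and -0.51 (5), and each marker on these lists had counts. None of the 4 root hair markers and neither of the 2 seed markers reached the count minimum, and 2 and 1 of them had no count in the 6 libraries. Floral organ markers were present at a summed level of 5.04, 33.0 and 42.7 CPM in polysomal RNA and 10.7, 66.2 and 74.8 CPM in monosomal RNA, with 8 of 9 fitted values below 0 and a median of -1.01. The tapetum and pollen coat markers summed to 1.95, 20.6 and 24.5 CPM in polysomal RNA and 4.18, 122.7 and 99.0 CPM in monosomal RNA, with all 8 tested below 0 and a median of -1.97. Both sums were lowest in replicate 1 of each fraction and overlapped between fractions (exact permutation test p = 0.3 each), and their part in the results was not tested. Fewer cells of a type and less RNA per cell cannot be told apart in bulk leaves.

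Stress, clock and growth genes showed no call in either direction. Medians were 0.16 for 17 endoplasmic reticulum genes, -0.15 for 22 clock genes, 0.64 for 7 tested heat shock genes (-0.07 without polysomal replicate 2), -0.29 for 17 JAZ and touch genes, -0.63 for 7 histone H4 genes and 0.72 for 5 cell division genes. HSC70-1, the constitutive cytosolic HSP70 chaperone, had 1889.8, 2571 and 2681 CPM in polysomal RNA and 1670.1, 1452 and 1392 CPM in monosomal RNA, without overlap and without passing the test (0.66, SE 0.36, adjusted p = 0.471). HIK, a kinesin of cytokinesis with 974 amino acids, stood at 1.07 (SE 0.43, adjusted p = 0.308), and JAZ12, a jasmonate repressor, at -0.89 (SE 0.30, adjusted p = 0.232).

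The same comparison was made in the upf1-3 pad4-1 mutant, to set the ratio of one genotype beside the other. There 231 loci (1.11%) were called, against 69 (0.33%) in pad4-1. All 69 loci called in pad4-1 had the same sign in the mutant, where 51 of them were called. The median log2 fold change below 100 amino acids was -0.99 in upf1-3 pad4-1 and -1.11 in pad4-1, and that at 1000 amino acids and above was 0.64 in upf1-3 pad4-1 and 0.49 in pad4-1. Mitochondrial loci had medians of 2.14 in upf1-3 pad4-1 and 1.74 in pad4-1, and chloroplast loci 1.32 in upf1-3 pad4-1 and 1.25 in pad4-1. Some classes without a call in pad4-1 had medians of opposite sign. These were 1.03 in upf1-3 pad4-1 and -1.28 in pad4-1 for small nuclear RNA loci, and 0.23 and -0.21 for lncRNA. For floral organ markers they were 0.36 and -1.01, and for tapetum and pollen coat markers 0.64 and -1.97. No locus differed in its ratio between genotypes by the interaction test in edgeR (0 of 20895, with 493 at an unadjusted p under 0.05), by limma-voom the count was 0 as well, and by DESeq2 it was 3.

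PMEAMT was among those 3. In the mutant it had 70.2, 67.6 and 123.7 CPM in polysomal RNA and 56.1, 104.9 and 136.3 CPM in monosomal RNA (log2 fold change -0.19, adjusted p = 0.928), beside the -4.25 of pad4-1. The difference of the ratio, upf1-3 pad4-1 minus pad4-1, was 4.06 (SE 0.77, unadjusted p = 7.70e-05), and its adjusted p was 0.99993 in edgeR, 0.00459 in DESeq2 and 0.99974 in limma-voom, so that the call depended on the tool.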

How the data were processed

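The deposited gene table of polysomal and monosomal RNA holds estimated counts per locus, which need not be whole. The build TAIR10 and the programs kallisto 0.43.0 and limma are named, per the submitters' processing notes, without their role or order. Per the labels' protocols, libraries were single-end and strand-specific, made after ribosomal RNA depletion. How the fractions were separated is not given in the sources used here. Total RNA libraries were not used.

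Here the expected counts deposited by the authors were rounded to whole numbers and fitted with edgeR 4.0.16 in R 4.3.3. The quasi-likelihood test used TMM scaling and 1 mean for each of 4 groups over 12 libraries, with 8 residual degrees of freedom. Loci had to pass filterByExpr with a count minimum of 10, which kept 20895 of 34212. A call is a two-sided adjusted p (Benjamini-Hochberg, over all tested loci) under 0.05. An SE is the log2 fold change over the square root of F. Two-sided exact permutation tests with n = 3 each compared values that are single per library. These were shares of counts, summed marker CPM, the gap between length classes and the number of pseudogene loci detected. Log2 fold changes over classes and lists are described by counts and medians with no test. Intervals and floors cover counting error only. Tested on simulated data for polysomal against monosomal RNA in pad4-1 over 20895 loci, with 50 loci changed at each fold, the fit called 4% at 2-fold, 28% at 4-fold, 70% at 8-fold and 78% at 16-fold, with 7 unchanged loci among its 97 calls, so a locus not called may still differ. Depth ran from 16325537 to 46774327 counts per pad4-1 library.

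Annotation, symbols, protein lengths and sequences are RefSeq's for TAIR10.1, matched by identifier for 33437 loci (97.7%). Its build may differ from the one the authors used. Protein length is that of the longest annotated protein.

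Named loci are those called with no overlap between fractions and a mean log2 CPM of at least 3: the 12 highest and 12 lowest with a symbol, up to 4 more each way without one, in each list the members of lowest p, 4 at most, and PAD4 and UPF1. For loci chosen as highest or lowest, the lack of overlap was a condition of the choice and is not a result. All further loci were chosen after their values were seen, AT5G02502, XPL1 and AT1G73600 among them. The members, the lists and this rule were chosen with earlier results of these data known. Alternatives were other scaling, count minimums, samples and tools (DESeq2 1.42.0, limma-voom from limma 3.58.1), a replicate block, and each library left out. The result for 1 called nuclear locus is not reported here.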

Additional observations from a re-analysis of the deposited data

How the results depend on the processing

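The number of loci called depended on the model far more than the pattern did. Against 69 calls (32 higher, 37 lower), there were 0 without TMM scaling, where the median of all loci moved to -0.144, 577 with no filter on low counts, 593 by DESeq2, 33 with nuclear loci only (10 higher, 23 lower), and 104 with the 6 pad4-1 libraries fitted alone. Counts of 63 and 78 came from a minimum of 50 counts and from limma-voom. Without 1 library, or without both libraries of a replicate number, the calls ran from 0 to 123. All 69 loci were among the calls with no filter and by DESeq2, and 51 among those of limma-voom. All 69 kept their direction under every alternative in which they were tested. With the replicate number as a block, 481 loci were called (181 higher, 300 lower), and 1434 with the block in the 6 libraries alone. The numbers were not taken to pair the libraries: deviations of same-numbered libraries correlated at 0.339, 0.06 and 0.104 in pad4-1, where polysomal replicates 2 and 3 correlated best with another number, and at 0.232, 0.155 and 0.169 in upf1-3 pad4-1, where each polysomal replicate correlated best with its own, a hint from the data and not from the design. Among list members, 12 calls became 66 with the block, 0 without TMM, 58 without the filter, 7 with nuclear loci only, 141 with the block in the 6 libraries alone and 56 by DESeq2, and 0 to 17 with libraries left out. The interaction gave 48 calls without the filter and 3 by DESeq2, and 0 otherwise. The difference of the chloroplast share, polysomal minus monosomal, was 11.3 percentage points, 18.2 outside ATCG00020, and 9.83 to 13.2 with a replicate number left out. That of the mitochondrial share was 0.066 points, and -0.453 to 0.626 with a replicate number left out. Why the counts of calls differ was not tested. Depth limits low loci, and a count of 0 does not show absence.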
